A study of Drosophila melanogaster with 2 samples.

Results

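Binding of the homeodomain transcription factor Engrailed was examined at 10 genes of the Decapentaplegic (Dpp) and bone morphogenetic protein (BMP) pathway in embryos of Drosophila melanogaster. The genes were listed by their role in the pathway and looked up by symbol in the Ensembl BDGP6 annotation, where all 10 were found among 18164 genes on the main chromosome arms. They were the ligand genes dpp and gbb, the receptor genes tkv, put and sax, the Smad genes Mad and Med, and the regulators brk, shn and sog, of which shn acts with the Smads, brk represses targets and sog inhibits the ligands. The chromatin came from 1 group of 2 biological replicates, numbered 1 and 3 in the labels: whole embryos of both sexes, 0 to 16 h old, from strain 3T-GFP, a transgenic line that stably expressed Engrailed carrying GFP at its C-terminus. GFP was the target of the immunoprecipitation per the deposited description, although the antibody label reads en. All embryos carried the tagged protein, no untagged embryos were analysed here, and the cells that express Engrailed were not separated from the rest. The line is 1 transgenic line, and the labels do not tell whether its replicates are separate embryo collections.

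Dpp signalling is the BMP pathway of the fly. The secreted ligands Dpp and Glass bottom boat (Gbb) bind type I and type II receptor kinases, which phosphorylate the Smad protein Mad. Phosphorylated Mad then enters the nucleus with the co-Smad Medea and, with the zinc-finger protein Schnurri (Shn), silences brinker (brk), a repressor of Dpp target genes. The secreted protein Short gastrulation (Sog), the fly counterpart of vertebrate Chordin, binds the ligands outside the cell, and the pathway patterns the dorsal side of the embryo. Engrailed marks the posterior compartment of each segment and is known as a repressor of dpp in the posterior compartment of imaginal discs.

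The IDR list, the set of peaks that the authors kept by their irreproducible discovery rate procedure, held 13 summits in the windows of these genes. The reference sequence of 101 bp centred on the summit is printed for the 8 peaks of dpp, tkv, Mad, Med, brk and sog, to show how often and where the homeodomain core stands around them. Those of the gbb peak and the 4 shn peaks are not printed. All are on the plus strand of build dm6, 5′ to 3′, and capitals mark TAAT or its reverse complement ATTA, the core that homeodomains are known to contact. Peaks of one gene are numbered from the highest pooled signal down.
dpp peak 1, 2L:2433585-2433685: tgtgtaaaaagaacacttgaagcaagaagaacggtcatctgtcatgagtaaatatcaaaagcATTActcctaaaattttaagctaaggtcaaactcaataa
dpp peak 2, 2L:2426639-2426739: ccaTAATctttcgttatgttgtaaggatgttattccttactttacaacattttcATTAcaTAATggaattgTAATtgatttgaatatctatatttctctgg
tkv peak 1, 2L:5245762-5245862: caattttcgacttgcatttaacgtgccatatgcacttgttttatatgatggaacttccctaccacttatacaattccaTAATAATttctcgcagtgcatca
Mad peak 1, 2L:3153357-3153457: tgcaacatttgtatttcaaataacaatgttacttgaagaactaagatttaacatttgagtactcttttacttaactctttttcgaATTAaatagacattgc
Med peak 1, 3R:31616117-31616217: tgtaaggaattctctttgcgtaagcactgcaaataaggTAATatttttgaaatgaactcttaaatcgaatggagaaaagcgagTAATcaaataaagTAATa
brk peak 1, X:7307006-7307106: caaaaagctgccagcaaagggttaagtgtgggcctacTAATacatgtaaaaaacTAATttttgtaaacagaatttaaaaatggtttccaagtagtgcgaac
sog peak 1, X:15623055-15623155: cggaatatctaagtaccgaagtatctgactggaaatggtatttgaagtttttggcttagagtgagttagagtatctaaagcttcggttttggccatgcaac
sog peak 2, X:15619392-15619492: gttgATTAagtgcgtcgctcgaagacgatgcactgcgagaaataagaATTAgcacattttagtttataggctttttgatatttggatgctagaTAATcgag
The core stood 4 times in the sequence of dpp peak 2, 3 times in those of Med peak 1 and sog peak 2, and was absent from that of sog peak 1. None of these 8 sequences held the longer palindrome TAATTA.

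An IDR summit lay in the window of 8 of the 10 genes, where a window runs from 5000 bp upstream of the gene to 1000 bp past its end. The background was 21.3% of all 18164 genes and 23.1% of the 13945 protein-coding genes. Both ligand genes, both Smad genes and all 3 regulators (brk, shn and sog) had a summit, but among the receptor genes only tkv had one, and put and sax had none. Longer windows hold a summit more often, so the count was also set beside genes of like length. Of protein-coding genes with windows under 10 kb, 18.0% had a summit, as did gbb and brk but not sax. Between 10 and 20 kb the share was 30.8%, with Mad and Med having a summit and put none. Between 20 and 50 kb it was 39.8%, and dpp and sog both had a summit. Over 50 kb it was 49.5%, and tkv and shn both had one. With 1 group, 2 replicates and no control sample, no test across embryos could be made, so these counts are descriptions of the lists.

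**Figure D1:**
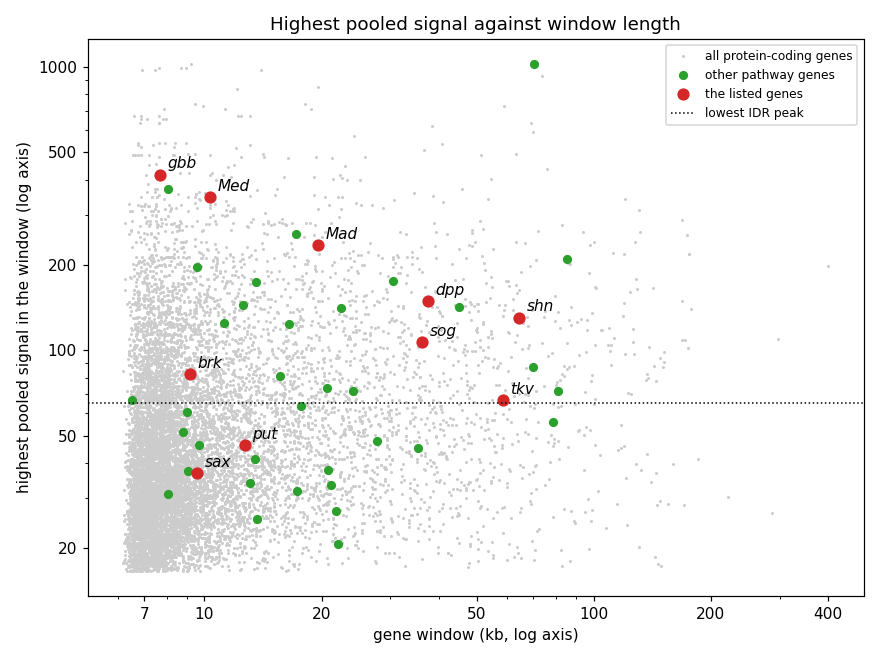
Each point is a protein-coding gene with at least 1 pooled region in its window. The x axis is the window length in kb and the y axis the highest signal in the window in the authors' pooled list, both on log axes, with the 10 listed genes in red and 35 other pathway genes in green. Of the listed genes, 8 lie above the dotted line at 65.1, the lowest IDR signal, and put and sax lie below it.

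The signal printed for a region is the authors' own value, but its scale is not stated, and the region lists do not show the read depth. The replicates and their pool had separate lists of 30000 regions, each of which reaches from strong peaks down to background, and the IDR list held 2226 regions, which were the 2226 of highest pooled signal. The pooled list held 143 regions in the 10 windows, with at least 4 in each. Of these 143, 9.09% were IDR peaks, against 7.56% of the pooled regions in the windows of all protein-coding genes together. Per 10 kb, the 10 windows held 5.39 pooled regions and 0.490 IDR summits, and the windows of all protein-coding genes together 2.58 and 0.195. Both densities were thus higher in the 10 windows, and the share of regions that reached the IDR list was close to that of protein-coding genes at large.

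**Figure D2:**
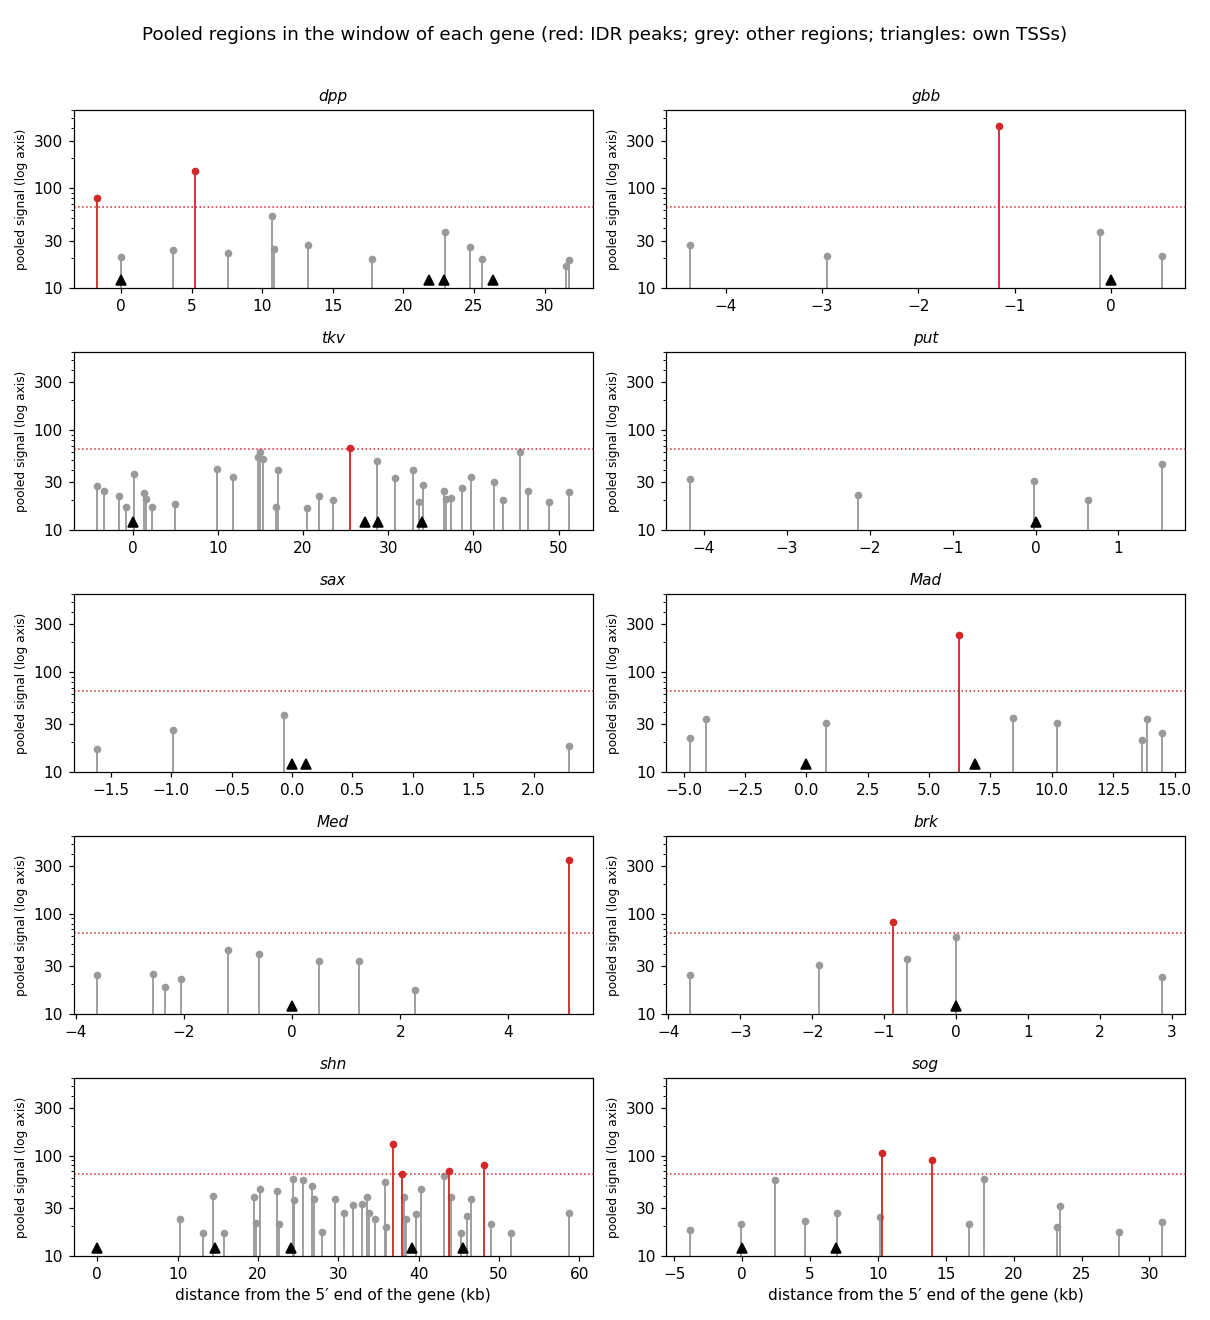
Pooled regions in each gene window, drawn by the distance of the summit from the annotated 5′ end of the gene (kb, positive downstream) and by pooled signal on a log axis. Red marks the 13 IDR peaks, grey the other regions, triangles the annotated start sites of the gene, and the dotted line the lowest IDR signal, 65.1. The red peaks of Mad and brk lie 654 and 883 bp from a triangle, and those of dpp, gbb, tkv, shn and sog more than 1000 bp. That of Med lies past the 3′ end of the gene.

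Among the ligands, dpp carried 2 peaks, and the window of gbb held the strongest peak near any of the 10 genes. The gene dpp (FBgn0000490, 2L:2428372-2459823, plus strand) encodes the BMP2 and BMP4 counterpart of the fly and has 4 annotated transcription start sites (TSSs). Its stronger peak, at 2L:2433437-2433832, had a pooled signal of 149 at rank 486, with a signal of 72.5 in replicate 1 (rank 323) and 74.8 in replicate 3 (rank 703). The summit lay in intron 1 of a dpp transcript (2L:2429051-2455056), 5263 bp downstream of the nearest TSS, which is dpp's own, and in no other gene window. The weaker peak, at 2L:2426491-2426886, had a pooled signal of 80.0 at rank 1561 and was intergenic, 1683 bp upstream of the nearest dpp TSS and 1192 bp from that of lncRNA:CR44912. Its signal was 28.5 in replicate 1 (rank 2228) and 50.5 in replicate 3 (rank 1467), so it stood just outside the 2226 highest regions of replicate 1. The next region of the window, in the same intron, reached only 52.3 (rank 3270).

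The BMP5 to BMP8 counterpart gbb (FBgn0024234, 2R:23851562-23853247, plus strand) is a short gene with 1 annotated TSS. The peak in its window, at 2R:23850270-23850541, had a pooled signal of 417 at rank 39, and the replicates gave nearly the same rank, 43 in replicate 1 with a signal of 159 and 42 in replicate 3 with 257. The summit lay 1164 bp upstream of the gbb TSS, within ytr, but 68 bp from the TSS of asRNA:CR45928 and 97 bp from that of eIF6, a ribosome biogenesis factor. It stood in the windows of 4 genes, 3 of them protein-coding. The highest region within 500 bp of the gbb TSS itself reached a signal of 36.8 at rank 6506, and its summit was nearer to the TSS of ytr, 28 bp away. The strong peak in the gbb window was thus at the promoters of asRNA:CR45928 and eIF6 and not at that of gbb.

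The receptors had the fewest peaks, 1 IDR summit over 80.6 kb of windows, or 0.124 per 10 kb. The type I receptor gene tkv (FBgn0003716, 2L:5219000-5271384, minus strand) had 36 pooled regions, of which 1 was in the IDR list. This peak, at 2L:5245614-5246009, lay in intron 1 of a tkv transcript (2L:5241507-5271265), 1673 bp upstream of the nearest of the 4 tkv TSSs. Its pooled signal of 66.6 at rank 2151 placed it near the lower end of the list. The replicates placed it apart, with a signal of 22.3 in replicate 1 (rank 3655) and 42.4 in replicate 3 (rank 2013). Further regions of the tkv introns fell just short, with pooled signals of 61.0 (rank 2476) and 60.6 (rank 2502). In replicate 1 the highest region of the tkv window had rank 2318, so tkv had none of the 2226 highest regions there, while replicate 3 had 2.

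The type II receptor gene put (FBgn0003169, 3R:14619030-14625703, minus strand) had 5 pooled regions and its highest signal was 46.3 at rank 4135, in an intron 1520 bp from its TSS. The highest region of put differed between the replicates. In replicate 1 it was the region at the put TSS (signal 21.0, rank 4114), and in replicate 3 the intronic one (signal 32.5, rank 3428). The second type I receptor gene sax (FBgn0003317, 2R:7806484-7810067, plus strand) had 4 pooled regions. The highest, with a signal of 36.8 at rank 6529, lay 68 bp from a sax TSS and 31 bp from that of Nop17l. Replicate 1 placed it at rank 3326 (signal 23.3), and replicate 3 near the end of its list, with a signal of 11.9 and rank 29345. Neither put nor sax had a region among the 2226 highest of either replicate.

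The Smad genes had 1 peak each, both narrow and among the strongest of the list. In Mad (FBgn0011648, 2L:3146056-3159643, minus strand), which encodes the receptor-activated Smad, the peak at 2L:3153311-3153518 had a pooled signal of 235 at rank 158. Its signal was 101 in replicate 1 (rank 129) and 142 in replicate 3 (rank 166), so the replicates placed it alike. The summit lay in intron 1 of a Mad transcript (2L:3149280-3159493), 654 bp upstream of the nearer of the gene's 2 TSSs and 6236 bp from the other, and in no other gene window. The next region of the Mad window had a signal of 34.9 (rank 7259). The Mad window thus held 1 strong peak, nearest to a TSS of Mad itself, and 8 weak regions.

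In the window of Med (FBgn0288966, 3R:31611046-31615375, plus strand), which encodes the co-Smad Medea, the peak at 3R:31616040-31616300 had a pooled signal of 348 at rank 56. Replicate 1 gave a signal of 143 at rank 54 and replicate 3 one of 205 at rank 61. The summit was 5121 bp downstream of the Med TSS and past the 3′ end of the gene, 7 bp from the TSS of Mnat9 and 136 bp from that of CG1792. It lay in the windows of 5 protein-coding genes, Med, Mnat9, CG1792, CycG and pasha. The remaining 9 regions of the Med window did not exceed 43.4 (rank 4700), and that one lay 53 bp from a TSS of CycG.

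The regulators brk, shn and sog held 7 of the 13 summits, 0.638 per 10 kb of their windows, against 0.665 for the ligands, 0.668 for the Smads and 0.124 for the receptors. These densities rest on few genes and few peaks, and their differences were not tested. Those of the ligands and Smads also count dpp peak 2 and the gbb and Med peaks, which lay nearest to TSSs of other genes. The repressor gene brk (FBgn0024250, X:7307939-7311132, plus strand) had a peak at X:7306858-7307253, 883 bp upstream of its TSS, with a pooled signal of 82.6 at rank 1470. The signal was 40.2 in replicate 1 (rank 1141) and 44.4 in replicate 3 (rank 1858). The summit also lies within introns of the overlapping genes CG1677 and lncRNA:CR44357. A further region stood 5 bp from the brk TSS, with a pooled signal of 58.3 at rank 2675. It fell short of the IDR list, with a signal of 28.7 (rank 2186) in replicate 1 and 30.4 (rank 3992) in replicate 3, so it was among the 2226 highest regions of replicate 1 only.

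The gene shn (FBgn0003396, 2R:11159086-11217394, plus strand), whose product joins Mad and Medea in silencing brk, held the most IDR summits of the 10 genes, 4 of its 40 pooled regions. Its window was also the longest of the 10, at 64.3 kb. Per 10 kb it held 0.622 IDR summits, fewer than gbb (1.3), brk (1.09) and Med (0.968). All 4 shn summits were intronic, nearest to a TSS of shn itself and in no other gene window. They lay within 11375 bp of one another, with gaps between neighbours from 1211 to 5810 bp. The strongest, at 2R:11195635-11196030, had a pooled signal of 130.4 at rank 638, with a signal of 58.3 in replicate 1 (rank 524) and 71.1 in replicate 3 (rank 774). The peak at 2R:11207010-11207405 had a pooled signal of 80.2, and ranks of 1469 and 1563 in replicates 1 and 3. The last 2 were less alike between the replicates. The peak at 2R:11202656-11203051 (pooled signal 71.2) stood at rank 1166 in replicate 1 and 4454 in replicate 3. The peak at 2R:11196846-11197241 (pooled signal 65.8, rank 2188) stood at rank 2601 in replicate 1 and 1483 in replicate 3. Their distances to the nearest of the 5 shn TSSs were 2443, 2579, 1775 and 1232 bp, in that order.

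The gene sog (FBgn0003463, X:15603283-15633434, minus strand), which encodes the secreted inhibitor of Dpp, had 2 peaks in the same intron (intron 1 of a sog transcript, X:15614907-15625429), 3663 bp apart. The stronger, at X:15622907-15623302, had a pooled signal of 107 at rank 925, with a signal of 36.2 in replicate 1 (rank 1407) and 70.4 in replicate 3 (rank 789). The other, at X:15619244-15619639, had a pooled signal of 90.4 at rank 1258, with a signal of 43.3 in replicate 1 (rank 999) and 53.1 in replicate 3 (rank 1327). The replicates thus ranked the 2 sog peaks in opposite order, and both peaks were among the 2226 highest regions of each. They lay 3435 and 7098 bp downstream of the nearest sog TSS and in no other gene window. The next regions of sog reached 58.7 (rank 2660) and 56.8 (rank 2822).

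Across the replicates, 9 of the 13 peaks were among the 2226 highest regions of both. The 4 that were not were dpp peak 2, the tkv peak and shn peaks 3 and 4, which had pooled signals of 80.0 or less. The share of all IDR peaks that were so placed in both replicates was not counted, so 9 of 13 has no background here. Counted by replicate, 7 of the 10 genes had a summit among the 2226 highest regions of replicate 1, against 22.8% of protein-coding genes, and 8 had one in replicate 3, against 22.9%. The gene that differed was tkv. The signal of replicate 3 was higher at 12 of the 13 peaks, with a median log2 difference of 0.50 (range -0.46 to 0.96), and shn peak 3 was the exception. For the 2220 IDR peaks that both replicate lists cover, the median difference was 0.60 with an SD of 0.52. The offset at these genes was thus within the spread over all IDR peaks, and the lists may differ in scale.

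**Figure D3:**
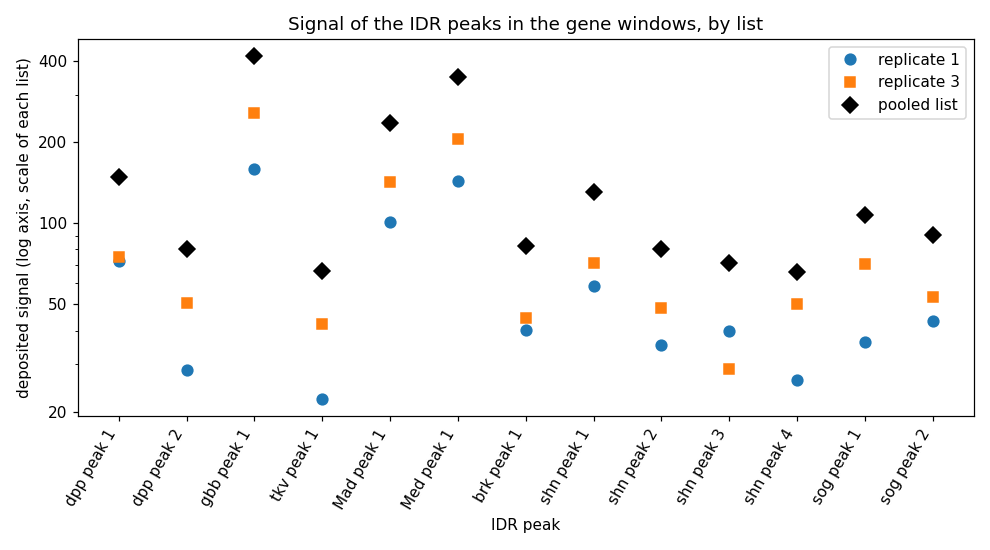
Deposited signal of each of the 13 IDR peaks in the gene windows, on a log axis, in the list of replicate 1 (blue circles), of replicate 3 (orange squares) and of the pool (black diamonds). The gbb, Med and Mad peaks are highest in all 3 lists, with pooled signals of 417, 348 and 235, and shn peak 3 is the only peak with a lower signal in replicate 3 than in replicate 1.

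None of the 10 genes had an IDR summit within 500 bp of one of its own TSSs, a state that 9.68% of the 13945 protein-coding genes did show. Since few genes have such a summit, 0 of 10 is not far from this background. Regions of the pooled list were present at the promoters of 9 of the 10, all below the lowest IDR signal, and at those of 51.2% of protein-coding genes. They were highest at brk (58.3, rank 2675) and shn (58.1, rank 2694), followed by tkv (49.4), gbb and sax (36.8 each), dpp (36.2), Med (33.8), put (31.3) and sog (26.9, rank 12495). The Med region was 499 bp from the TSS, at the edge of the distance. Those of tkv, gbb and sax lay nearer to a TSS of another gene, the tkv region 17 bp from CR14033 and 96 bp from tkv. The 51.2% covers genes with any number of TSSs, while dpp and tkv have 4 each and shn has 5. Mad had no pooled region within 500 bp of a TSS. By nearest TSS instead of by window, 6 of the 10 genes had an IDR summit (dpp, tkv, Mad, brk, shn and sog), against 11.5% of protein-coding genes, while gbb and Med dropped out. The 11.5% covers genes of all lengths and was not split by length, whereas dpp, sog, tkv and shn have windows over 20 kb. The 6 of 10 thus has no background of like length here.

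**Figure D4:**
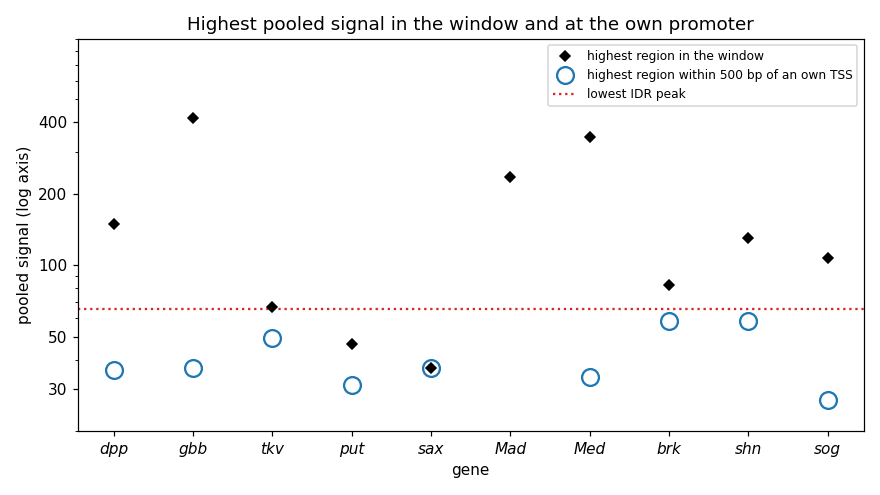
For each gene, the highest pooled signal anywhere in the window (black diamonds) and within 500 bp of one of its own TSSs (blue circles), on a log axis. All 9 circles lie below the dotted line at the lowest IDR signal, 65.1; Mad has no circle, and for sax the highest region of the window is the one at the promoter.

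The 13 peaks were mostly intronic. Of their summits, 10 were in introns, 2 at promoters within 500 bp of any TSS (those near gbb and Med) and 1 was intergenic, with none in an exon. In the whole IDR list, 49.3% of summits were at promoters, 35.4% in introns and 12.7% intergenic. Of the 10 intronic peaks, 5 were those of tkv and shn, the genes with windows over 50 kb. Of the 143 pooled regions in the 10 windows, 61.5% were in introns and 22.4% at promoters, against 38.5% and 30.8% of all pooled regions. This also rested in part on tkv and shn, with 76 of the 143 regions, of which 71.1% were in introns and 15.8% at promoters. In the windows of the other 8 genes, 50.7% of 67 regions were in introns and 29.9% at promoters, the latter close to the share in all pooled regions. The median distance from a summit to the nearest TSS of any gene was 1673 bp for the 13 peaks and 522 bp for all IDR peaks. The median pooled signal was 90.4 against 97.5.

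Most peaks had the same width. In the IDR list 80.3% of regions were 396 bp wide and 19.6% were narrower, and among the 13 the peaks at gbb (272 bp), Med (261 bp) and Mad (208 bp) were narrower. The narrower IDR regions had a median signal of 204 and the others 87.5, so the 3 peaks share both width and rank with the strong end of the list. The G+C content of the 101 bp around the summit ranged from 25.7% at the Mad peak to 41.6% at the gbb peak and shn peak 3, with a median of 34.7% against 33.7% in the IDR list.

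Sequence matches at the 13 summits were close to those of the whole list. Within 50 bp of the summit, the core TAAT on either strand was present at 10 of the 13 peaks, against 75.7% of IDR peaks and 61.2% of the 27349 pooled regions outside the IDR list. The peaks without it were those of gbb, shn peak 3 and sog peak 1. TAATTA, which contains TAAT on both strands, was present at 1 of the 13, shn peak 2, against 7.73% of IDR peaks and 6.59% of regions outside the list. No match was found at any of the 13 for TATCGATA, the DNA replication-related element (1.75% of IDR peaks), GAGAGAG, which GAGA factor is known to bind (1.12%), CACACACA (1.03%), or CAGGTAG, the site of the early activator Zelda (0.404%). The same held for GCCGNCG, a motif of Mad (1.39%), and for forms of the Brinker site, GGCG followed by CC, CT, TC or TT (8.27%). All were searched on both strands, and outside the IDR list the shares ran from 0.574% for CAGGTAG to 4.25% for GCCGNCG and, above both, that of the Brinker forms. With 13 peaks, motifs as rare as these may be missed by number alone.

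The rest of the pathway was described from a list of 40 further genes, of which 39 were found as spelled. An IDR summit lay in the windows of 18 of these 39, against the 23.1% of protein-coding genes given above. Within 500 bp of an own TSS, 5 of the 39 had a summit, not far from the 9.68% of protein-coding genes that did. Many of the 39 windows were long. By length, a summit was present in 3 of 12 windows under 10 kb, 6 of 11 between 10 and 20 kb, 5 of 11 between 20 and 50 kb, and 4 of 5 over 50 kb. The shares of protein-coding genes in these classes were 18.0%, 30.8%, 39.8% and 49.5%, as above. None of the 4 other ligand genes had one. The highest regions at mav, Actbeta and daw had pooled signals of 51.4, 41.2 and 33.9, and scw, the early embryonic partner of Dpp, had no pooled region in its window. Both other receptor genes had a summit. The type II receptor gene wit had an intronic peak with a signal of 174, 1118 bp from its TSS and 1110 bp from that of CG32259. The type I receptor gene babo, of the Activin branch, had one of 124, 188 bp from the TSS of CG33199.

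Of 12 genes for extracellular modulators, 6 had a summit. The highest were at magu (257, 283 bp from its own TSS), which encodes the Dpp feedback regulator Pentagone, cv-2 (176, intronic, nearest to the TSS of CG17974), the glypican gene dlp (142, intronic, 1 of 5 summits) and its relative dally (87.5, intronic). The dlp and dally peaks were nearest to lncRNA TSSs. The genes tsg and tld, whose products act with Sog on Dpp in the early embryo, had no pooled region at all, and neither did the Dpp target zen. Such windows were not rare, at 19.8% of protein-coding genes, and they numbered 4 of the 39 here.

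Of 6 further intracellular components, 5 had a summit. The scribbler gene sbb held 8, with its highest signal, 210.2, at 125 bp from its own TSS. The inhibitory Smad gene Dad had an intronic peak of 141, 10197 bp from its own TSS and 7581 bp from that of Ns1, and Smox, the Smad of the Activin branch, had one of 125 at the promoter of CG17982. The corepressor gene CtBP followed with 73.8. The ubiquitin ligase gene Smurf was the one without, with a highest signal of 63.7 at rank 2302, just below the list. That region lay 196 bp from the TSS of tRNA:Phe-GAA-1-4 and 11620 bp from that of Smurf. Of 15 genes known as targets of Dpp signalling, 5 had a summit. The highest was ush, with 10 summits, the strongest of which had a signal of 1022 (rank 1 of the list) and lay 4865 bp from the TSS of ush and 1397 bp from that of cbt. The peak of bam (372) was 1 bp from the TSS of RpS27 and that of Ance (197) 59 bp from the TSS of Smg5. The intergenic peak of Doc2 (145) was 7230 bp from its own TSS and 2178 bp from that of CG5194. The fifth was peb, with a signal of 80.9 at 499 bp from its own TSS. Of the 18 genes, 10 had in their windows only summits nearer to the TSS of another gene, and 8 had at least 1 summit nearest to their own.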

How the data were processed

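The analysis started from region lists deposited by the submitters in build dm6. Per the text descriptions deposited with the samples, each replicate list and the pooled list hold peaks and background called from alignments with a control file, as input for the IDR procedure, and the IDR list was derived from them. For the aligner, the caller and the IDR threshold, nothing is given in the sources used here. The deposited signal value of each region (column 7) was used to rank regions. The deposited −log10 q-value (column 9) was used in 1 alternative, because it stood at its maximum of 3.82 for 3340 pooled regions. The lists in build dm3 were not used and no coordinates were converted.

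Gene models came from Ensembl release 115 (BDGP6) without transposable elements, and bases were read from RefSeq's copy of the same assembly, release 6 (dm6). A replicate's value at a peak is its highest region overlapping that peak by at least 1 bp. Classes were assigned in the order promoter, coding exon, other exon, intron, intergenic, and an intron is the shortest annotated one that holds the summit. Genes were named by rule: all 10 listed genes, the genes with the nearest TSS or a TSS within 500 bp of their peaks, and up to 4 genes of highest signal in each of 5 further lists. The genes, lists and motifs were chosen with earlier results of these data known. No test was made. For the window edges, the check reused the bounds and the rule of the windows, so it was no independent check. The nearest-TSS lookup at planted TSSs and the reading of the reverse strand were checked on simulated positions. The counting of summits and the motif search themselves were not checked in this way. Computation used Python 3.11.15, numpy 2.4.6 and pandas 2.3.3.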

Additional observations from a re-analysis of the deposited data

How the results depend on the processing

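The number of listed genes with an IDR summit was 8 and ranged from 6 to 9 over the alternatives. It was 6 with the gene body and 1000 bp upstream, without gbb and Med, 6 by nearest TSS, 6 with only the 1113 highest IDR peaks (without tkv and brk), and 9 with 10000 bp upstream and 5000 bp downstream, which added sax. From 1 replicate alone it was 7 or 8. The 13 summits in their windows became 6 with the 1113 highest IDR peaks and 24 with all pooled regions at the highest q-value, fewer and more regions by construction, and 12 to 14 from 1 replicate. The count of other pathway genes, 18 of 39, fell to 9 by nearest TSS, which gives a summit to the nearest gene alone, and was 16 to 18 from 1 replicate. Adding myo, the spelling in the annotation of the unmatched Myo, left it at 18, an alternative chosen after seeing the data. Genes with a summit at an own promoter numbered 0, but 2 with a distance of 1000 bp (Mad and brk), 2 with all regions at the highest q-value (brk and shn) and 0 to 1 from 1 replicate (brk in replicate 1). The highest pooled signal of each gene was unchanged in 24 of 30 alternatives, which altered only the window or took the nearest TSS. The 6 others were at gbb, Med and sax. They moved by more than 0.52 on the log2 scale, the SD over IDR peaks of the difference between replicates. Among these alternatives, the share of protein-coding genes with a summit was counted only by nearest TSS and, for windows, from 1 replicate. The other gene counts, with changed windows, promoter distances or sets of regions, have no background of their own. Their range thus does not tell how the listed genes compare with protein-coding genes at large under those settings. Depth was unknown, so regions below the lists cannot be described.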

Other observations

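Beyond the windows, the genes differed in how far the next IDR summit lay. Downstream of dpp, where the imaginal disc enhancers of the gene are known to lie, the next IDR summit was 33863 bp past the end of the window, 1731 bp from a TSS of oaf, with a signal of 72.9. The 10 pooled regions in between reached at most 38.5. These values come from whole embryos and do not describe binding in imaginal discs. At Mad the next summit was 87038 bp away and the 31 regions in between reached 63.6. At brk it was 1285 bp past the upstream end of the window, with a signal of 70.3 and the brk TSS, at 6285 bp, as the nearest. At sog it was 2367 bp past the downstream end, with a signal of 97.7. At sax it was 1350 bp past the downstream end, 87 bp from the TSS of puml, with a signal of 76.1.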
